A study of Mus musculus with 2 samples.

Results

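The Mir17-92 cluster on chromosome 14 and the Mir106b-25 cluster on chromosome 5 encode 9 miRNA hairpins, all of which are among the 1973 miRNA genes in the count tables of the embryonic heart libraries. The 9 were taken by the gene names and positions that GENCODE gives for their Ensembl identifiers: Mir17, Mir18, Mir19a, Mir20a, Mir19b-1 and Mir92-1 for the first cluster, and Mir106b, Mir93 and Mir25 for the second. Mir18 and Mir92-1 are the GENCODE symbols of the genes also written Mir18a and Mir92a-1. All 9 had at least 10 counts in each library, the limit used for a detected gene.

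Small RNA was sequenced from whole hearts of B6NCrl mouse embryos at embryonic day 16.5, healthy and of both sexes, with no treatment or mutation named in the labels. The 2 libraries are biological replicates of this single group. Each was made from a pool of hearts, 41 embryos for replicate 2 and a number not given in the labels for replicate 1. With no second condition, the data give the levels of the 9 genes and how far the 2 pools differed, and a pooled organ does not tell in which heart cells a miRNA was made. In such tissue, fewer cells of a type and less RNA per cell cannot be told apart.

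A miRNA cluster is transcribed as 1 long precursor from which Drosha cuts hairpins and Dicer cuts short duplexes, and 1 strand of each duplex usually guides the Argonaute protein to messenger RNAs. Target choice rests mainly on the seed, bases 2 to 8 of the guide strand. Mir17-92 is a MYC-activated and E2F-activated cluster known for promoting proliferation and survival, and mice that lack it die around birth with hypoplastic lungs and ventricular septal defects. Mir106b-25 is a paralogous cluster within Mcm7, which encodes a subunit of the replicative DNA helicase. Its loss alone is tolerated in mice, while loss together with Mir17-92 is more severe than loss of Mir17-92 alone.

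The sequences of the usual guide arms are shown because they divide the 9 genes into 4 seed groups that cross the 2 clusters. They were taken from RefSeq (GRCm38.p6), run 5′ to 3′, and have the seed in capitals. The first group, with the miR-17 seed, holds genes of both clusters, and its best-known targets include the cell cycle inhibitor p21.
miR-17-5p (Mir17): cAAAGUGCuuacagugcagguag
miR-20a-5p (Mir20a): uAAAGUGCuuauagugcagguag
miR-93-5p (Mir93): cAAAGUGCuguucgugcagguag
miR-106b-5p (Mir106b): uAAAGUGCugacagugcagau

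The second group has a seed that differs from the first by 1 base and holds Mir18 alone.
miR-18a-5p (Mir18): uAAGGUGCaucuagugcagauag

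The third group, the miR-19 arms, holds 2 genes of Mir17-92.
miR-19a-3p (Mir19a): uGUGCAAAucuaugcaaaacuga
miR-19b-3p (Mir19b-1): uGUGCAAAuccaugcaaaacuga

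The fourth group, with the miR-92 seed, has the last gene of each cluster.
miR-92a-3p (Mir92-1): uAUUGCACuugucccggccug
miR-25-3p (Mir25): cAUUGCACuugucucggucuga

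The groups are set by the seed, so the arms of a group can differ only outside it. Counted over the shorter arm, miR-17-5p differed from miR-20a-5p at 2 bases, from miR-106b-5p at 3 and from miR-93-5p at 4. The miR-19a-3p and miR-19b-3p arms differed at 1 base, and miR-92a-3p and miR-25-3p at 3 bases. The arms were 21 to 23 bases long, so levels were compared per gene without division by length. The tables count reads per hairpin and do not separate the 5p from the 3p arm.

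The 6 hairpins of Mir17-92 lay within 836 bases of chromosome 14 (mm10, 115043671 to 115044506, plus strand), separated by 35 to 96 bases. In order along the transcript, with the Ensembl identifiers of the tables, they were Mir17 (ENSMUSG00000065508.1) at 115043671 to 115043754, Mir18 (ENSMUSG00000065403.1) at 115043851 to 115043946 and Mir19a (ENSMUSG00000065416.1) at 115044000 to 115044081, followed by Mir20a (ENSMUSG00000065442.1) at 115044157 to 115044263, Mir19b-1 (ENSMUSG00000076256.1) at 115044305 to 115044391 and Mir92-1 (ENSMUSG00000076062.1) at 115044427 to 115044506. All of them lay in exon 2 of the only annotated transcript of Mir17hg, a long noncoding RNA gene (115042879 to 115046727). The 3 hairpins of Mir106b-25 lay within 498 bases of chromosome 5 (138165321 to 138165818, minus strand), separated by 118 and 126 bases. They were Mir106b (ENSMUSG00000065514.1) at 138165737 to 138165818, Mir93 (ENSMUSG00000065527.1) at 138165523 to 138165610 and Mir25 (ENSMUSG00000065394.1) at 138165321 to 138165404. They lay in introns of both protein-coding Mcm7 transcripts that span them. Mir93 and Mir25 also overlapped an exon of 1 retained-intron transcript of Mcm7.

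The libraries held 5841568 sense counts at miRNA genes in replicate 2 and 6473482 in replicate 1, and CPM here means counts per 1000000 of these. A count of 0 would allow up to 0.514 CPM in replicate 2, against 0.463 CPM in replicate 1. Intervals cover counting error only, since reads copied by PCR are not independent molecules. The 3 heart muscle miRNAs Mir208a, Mir208b and Mir499 were all detected and together stood at 67120 CPM in replicate 2, against 67703 CPM in replicate 1. Reads that matched several places made up 31.9% of reads in replicate 2 and 29.5% in replicate 1, and were counted in no gene.

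Both clusters were well represented, and Mir17-92 was the larger. Mir17-92 held 2.37% of sense counts in replicate 2 (Wilson 95% interval 2.36 to 2.38%) and 2.08% in replicate 1 (2.07 to 2.09%), a mean of 2.23% ± 0.21 (SD, n = 2). Mir106b-25 held 0.961% in replicate 2 (0.953 to 0.969%) and 0.811% in replicate 1 (0.804 to 0.818%), a mean of 0.886% ± 0.106. Counts of Mir17-92 exceeded those of Mir106b-25 2.47-fold in replicate 2 and 2.56-fold in replicate 1. The log2 ratio was 1.33 ± 0.04, with exact Clopper-Pearson 95% intervals of 1.29 to 1.32 in replicate 2 and 1.34 to 1.37 in replicate 1. The ranges of the 2 clusters over the libraries did not overlap.

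**Figure D1:**
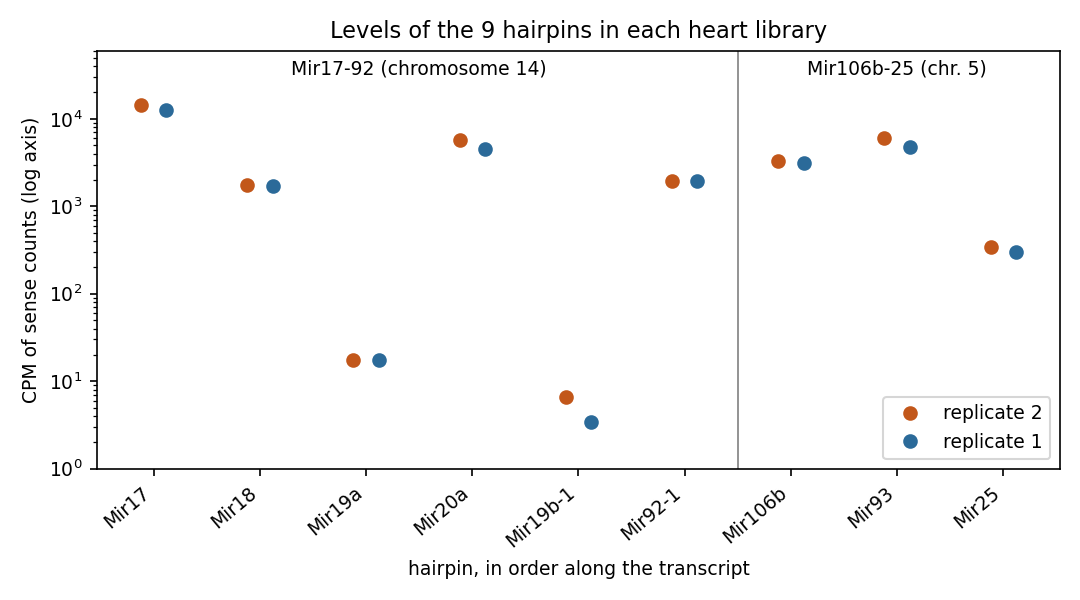
CPM of sense counts (log axis) of the 9 hairpins in their order along each transcript, with 1 point per library, replicate 2 left of replicate 1. Mir17 stood highest at 14230 and 12548 CPM, Mir19b-1 lowest at 6.68 and 3.40 CPM, and the points of 1 gene lie much closer together than those of most neighbouring genes.

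The 4 genes with the miR-17 seed carried most of the counted reads of both clusters. Mir17, the first hairpin of its transcript, stood at 14230 CPM in replicate 2, against 12548 CPM in replicate 1, ranks 16 and 19 of all listed genes. Mir20a, its relative in the same transcript, stood at 5794 CPM in replicate 2, against 4544 CPM in replicate 1. Mir17 was therefore the higher of the pair in both libraries, by 2.46-fold in replicate 2 and 2.76-fold in replicate 1.

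In Mir106b-25, 2 genes have this seed. Mir93 stood at 6002 CPM in replicate 2, against 4701 CPM in replicate 1, and Mir106b at 3267 CPM in replicate 2, against 3110 CPM in replicate 1. Mir93 exceeded Mir106b 1.84-fold in replicate 2 and 1.51-fold in replicate 1. Mir20a and Mir93, from different chromosomes, were nearly level: the ratio of Mir20a over Mir93 was 0.965 in replicate 2 and 0.966 in replicate 1, on the log2 scale -0.05 ± 0.001. The exact interval of this log2 ratio was -0.072 to -0.029 in replicate 2 and -0.072 to -0.026 in replicate 1. Mir93 was thus slightly the higher of the pair within each library, by counting error alone. Taken across the libraries the ranges of Mir20a and Mir93 overlapped, and no other neighbours in the order of the 9 genes had overlapping ranges.

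Mir18, with the related seed, stood at 1751 CPM in replicate 2, against 1706 CPM in replicate 1. Although it is the neighbour of Mir17 in the transcript, 96 bases downstream, it was 8.13-fold lower than Mir17 in replicate 2 and 7.36-fold lower in replicate 1. In counted reads its level stood just under that of Mir92-1, and the log2 ratio of Mir92-1 over Mir18 was 0.17 ± 0.05.

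The miR-92 seed group was next. Mir92-1, the last hairpin of its transcript, stood at 1925 CPM in replicate 2, against 1962 CPM in replicate 1. Mir25, the last hairpin in the Mcm7 transcript, stood at 338 CPM in replicate 2, against 298 CPM in replicate 1. Mir92-1 exceeded Mir25 5.70-fold in replicate 2 and 6.58-fold in replicate 1.

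The miR-19 genes had very few counts. Mir19a had 103 counts in replicate 2 and 113 in replicate 1, which is 17.6 CPM in replicate 2 and 17.5 CPM in replicate 1. Mir19b-1 had 39 counts in replicate 2 and 22 in replicate 1, or 6.68 CPM and 3.40 CPM. Mir20a, whose hairpin lies between the 2 in the transcript, had 33847 counts in replicate 2 and 29414 in replicate 1. The 2 miR-19 genes together held 0.102% of the cluster's counts in replicate 2 and 0.100% in replicate 1.

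**Figure D2:**
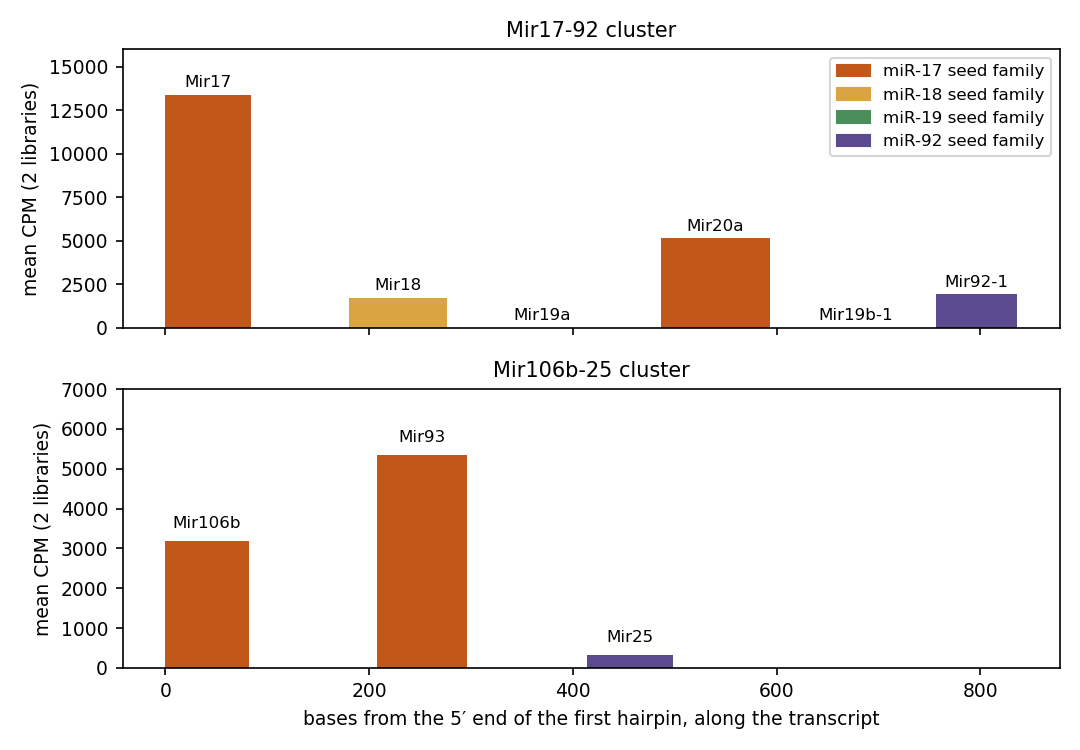
Mean CPM over the 2 libraries (linear axis from 0) of each hairpin, drawn to scale at its distance in bases from the first hairpin of its cluster and coloured by seed group. In Mir17-92, Mir19a (17.5 CPM) and Mir19b-1 (5.04 CPM) are too low to see beside Mir17 (13389 CPM) and Mir20a (5169 CPM), and in Mir106b-25 Mir93 (5351 CPM) stands above Mir106b (3188 CPM) and Mir25 (318 CPM).

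In counted reads the levels of hairpins from 1 precursor thus spanned a wide range, and they did not follow the order along the transcript. In Mir17-92 the order of levels was Mir17, Mir20a, Mir92-1, Mir18, Mir19a and Mir19b-1 in both libraries. The highest stood 2131-fold above the lowest in replicate 2 and 3692-fold above it in replicate 1. The log2 ratio was 11.5 ± 0.56 (SD, n = 2). The guide arm of the lowest gene, Mir19b-1, also lies in Mir19b-2, and reads that match both were counted in neither. These values therefore hold for counted reads only. Mir19a, whose guide arm lies in no other listed hairpin with a GENCODE sequence, stood 807-fold under Mir17 in replicate 2 and 719-fold in replicate 1. In Mir106b-25 the order was Mir93, Mir106b and Mir25 in both libraries, and Mir93 exceeded Mir25 17.8-fold in replicate 2 and 15.8-fold in replicate 1. The log2 ratio there was 4.06 ± 0.12. These are ratios of reads, and whether the library preparation read different miRNAs with equal efficiency was not tested.

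Of the 9 genes, 2 have a guide arm that is present in another hairpin. The guide arm of Mir19b-1 also lies in Mir19b-2 on the X chromosome, and the guide arm of Mir92-1 also lies in Mir92-2 on the X chromosome. The hairpins are shown with the longest stretch common to each pair in capitals, because a read within the capitals matches both places and is then counted in neither.
Mir19b-1 (chr14:115044305-115044391, plus strand): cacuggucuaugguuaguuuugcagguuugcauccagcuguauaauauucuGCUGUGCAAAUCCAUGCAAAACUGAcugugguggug
Mir19b-2 (chrX:52741983-52742066, minus strand): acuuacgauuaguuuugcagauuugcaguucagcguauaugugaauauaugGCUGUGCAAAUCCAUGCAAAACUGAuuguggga
Mir92-1 (chr14:115044427-115044506, plus strand): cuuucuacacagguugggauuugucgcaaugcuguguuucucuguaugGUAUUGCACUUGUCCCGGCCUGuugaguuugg
Mir92-2 (chrX:52741838-52741928, minus strand): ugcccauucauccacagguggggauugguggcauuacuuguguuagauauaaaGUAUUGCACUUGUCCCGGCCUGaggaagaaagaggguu

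The common stretch was 25 bases for the miR-19b pair and 22 bases for the miR-92a pair, and it holds the whole guide arm in each. The counts of Mir19b-1 and Mir92-1 are therefore uncertain, and reads of these guide arms that end inside the common stretch are missing from them. With these 2 genes left out, the spread within Mir17-92 was that of Mir17 over Mir19a, 807-fold in replicate 2 and 719-fold in replicate 1. The other 7 genes had no guide arm in another of the 1894 listed hairpins with a GENCODE sequence, and shared at most 17 bases with any of them. Mir19a was among these 7, and its longest exact common stretch with another hairpin was 13 bases. Its level was 17.6 CPM in replicate 2 and 17.5 CPM in replicate 1. These rest on 103 and 113 counts, so their counting error is wider than the gap between the libraries. Its guide arm differs from that of Mir19b-1 at 1 base, and how reads with a mismatch were placed is not given. The cause of the low level of Mir19a was not tested. Copies elsewhere in the genome were not analysed here.

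**Figure D3:**
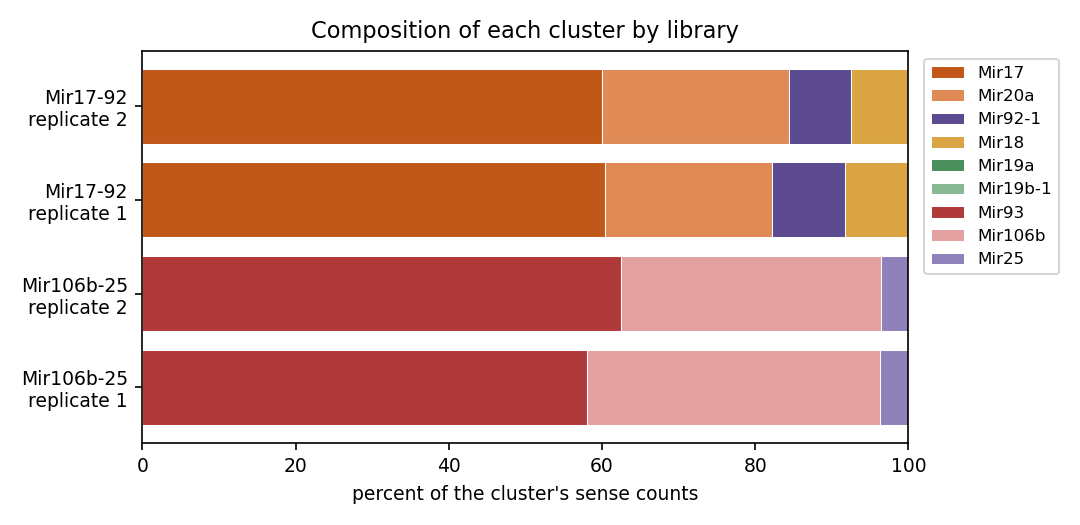
Percent of each cluster's sense counts from each of its genes, 1 bar per cluster and library, replicate 2 above replicate 1. Mir17 made up 60.0% and 60.4% of Mir17-92, and Mir93 62.5% and 58.0% of Mir106b-25; the miR-19 genes are too thin to see.

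By composition of the counted reads the 2 clusters were alike in that the miR-17 seed dominated. Reads of the Mir92-1 and Mir19b-1 guide arms that end inside the common stretches are missing from these shares. The true part of the miR-92 and miR-19 seeds may therefore be larger. Mir17 and Mir20a made up 84.4% of Mir17-92 in replicate 2 and 82.2% in replicate 1. Mir93 and Mir106b made up 96.5% of Mir106b-25 in replicate 2 and 96.3% in replicate 1. Over both clusters the miR-17 seed held 87.9% of counts in replicate 2 and 86.2% in replicate 1, the miR-92 seed 6.79% and 7.83%, and the miR-18 seed 5.25% and 5.90%. Mir17-92 supplied 71.2% of the counts of the 9 genes in replicate 2 and 71.9% in replicate 1, and Mir17 alone 42.7% and 43.4%.

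The 9 genes were then set within their whole seed groups, taken as every listed gene with a RefSeq mature sequence of that seed. The miR-17 group added Mir106a and Mir20b of the X-linked Mir106a-363 cluster, and Mir6383, which had no count. Mir17, Mir93, Mir20a and Mir106b held 97.3% of this group in replicate 2 and 98.8% in replicate 1. The group as a whole made up 3.01% of sense counts in replicate 2 and 2.52% in replicate 1.

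The miR-18 group added Mir18b, which had 19.0 CPM in replicate 2 but 13.9 CPM in replicate 1, both far under Mir18. The miR-19 group added Mir19b-2, and Mir19a and Mir19b-1 held 88.8% of it in replicate 2 and 91.2% in replicate 1. These shares rest on few counts, and reads within the stretch common to Mir19b-1 and Mir19b-2 were counted in neither. Reads within the stretch common to Mir92-1 and Mir92-2 were likewise counted in neither gene, which limits the miR-92 shares that follow. The miR-92 group was the most mixed. Mir92-1 and Mir25 held 78.2% of it in replicate 2 and 78.6% in replicate 1. Its other detected genes were Mir363 (217 ± 101 CPM), Mir92b (171 ± 122 CPM), Mir92-2 (126 ± 42.1 CPM) and Mir32 (110 ± 9.81 CPM), while Mir367, of a cluster known from embryonic stem cells, had no count. Mir363 and Mir92b were uneven between the libraries. Mir92b stood at 84.2 CPM in replicate 2, against 257 CPM in replicate 1, a log2 ratio of -1.58 (adjusted p = 7.16e-118). Mir363 stood at 289 CPM in replicate 2, against 146 CPM in replicate 1.

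The X-linked Mir106a, Mir20b and Mir18b were far lower than their counterparts on chromosome 14. Mir18 exceeded Mir18b 92.1-fold in replicate 2 and 123-fold in replicate 1. Mir17 exceeded Mir106a 31.9-fold in replicate 2 and 73.6-fold in replicate 1, where the guide arms differ at 1 base, and Mir20a exceeded Mir20b 16.0-fold and 37.2-fold. Mir92-1 exceeded Mir92-2 12.4-fold in replicate 2 and 20.4-fold in replicate 1. Reads of the guide arm common to Mir92-1 and Mir92-2 are missing from both, as are those common to Mir19b-1 and Mir19b-2. The ratios of these pairs therefore hold for the counted reads only. For Mir19b-1 over Mir19b-2 the ratio was 2.17 in replicate 2 and 1.69 in replicate 1, on 39 and 18 counts in replicate 2 and 22 and 13 counts in replicate 1. The exact interval of its log2 ratio in replicate 1, -0.29 to 1.87, included 0.

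The 2 pools were compared with a two-sided exact binomial test per gene on the counts, given library sizes scaled by TMM, a trimmed mean of log ratios. Benjamini-Hochberg adjustment ran over all 365 detected genes, and a gene with an adjusted p under 0.05 was called. The test compares these 2 libraries and knows counting error alone. Of the 9 genes, 7 were called higher in replicate 2, 0 were called lower, and Mir19a and Mir92-1 were not called. Of all 365 detected genes, 46.3% were called, 26.0% higher and 20.3% lower in replicate 2. Of the 82 genes with a mean of at least 1000 CPM 79.3% were called, 33 higher and 32 lower in replicate 2. Among these 82 were 6 cluster genes, of which 5 were called, all of them higher. Their share of calls was thus near that of all abundant genes, while their calls went 1 way and those of the 82 went both ways. No cluster gene differed by 2-fold or more, while 3.29% of all detected genes were called and did so.

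**Figure D4:**
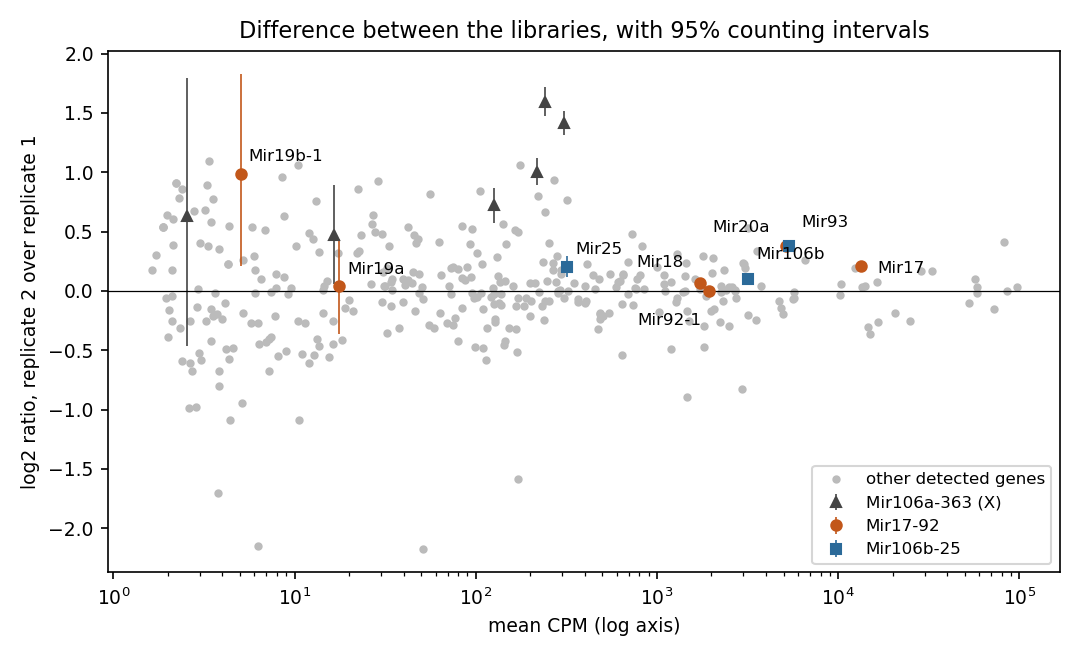
Log2 ratio of replicate 2 over replicate 1 (TMM-scaled counts with 0.5 added) against mean CPM (log axis), 1 point per detected gene, with exact 95% counting intervals for the clusters. Mir20a and Mir93 lie together at 0.38, Mir92-1 at 0, and all 6 X-linked Mir106a-363 genes lie above every cluster gene except Mir19b-1.

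Among the cluster genes above 1000 CPM, Mir93 and Mir20a differed most between the pools. Mir93 was 1.30-fold higher in replicate 2 (log2 ratio 0.38, 95% interval 0.36 to 0.40, adjusted p = 3.43e-244). Mir20a was also 1.30-fold higher (0.38, 0.35 to 0.40, adjusted p = 5.53e-234). Their 2 intervals overlapped, although the genes lie on different chromosomes.

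Mir17 was 1.15-fold higher in replicate 2 (0.21, 0.19 to 0.22, adjusted p = 2.23e-184), and Mir25 also 1.15-fold (0.20, 0.11 to 0.30, adjusted p = 3.19e-05). Mir106b was 1.07-fold higher (0.10, 0.07 to 0.13, adjusted p = 1.57e-10) and Mir18 1.04-fold (0.06, 0.02 to 0.10, adjusted p = 0.00399). For Mir18 the call was lost with total-count scaling (adjusted p = 0.113) and with DESeq2 size factors (adjusted p = 0.241). Mir19b-1 was 1.98-fold higher on 39 and 22 counts (0.99, 0.21 to 1.82, adjusted p = 0.0231).

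Mir92-1 had a log2 ratio of -0.003 (-0.04 to 0.03, adjusted p = 0.930) and Mir19a of 0.04 (-0.36 to 0.44, adjusted p = 0.899). The interval of Mir19a, on about 100 counts, also held the log2 ratio of Mir20a. The interval of Mir92-1 was narrow and lay apart from those of Mir17 and Mir20a, which share its precursor. It holds for the counted reads only, since reads within the stretch common to Mir92-1 and Mir92-2 are missing. Within Mir106b-25 the intervals of Mir93 and Mir106b lay apart as well.

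The median log2 ratio of the 9 genes was 0.20, beside 0.02 for all detected genes. The median absolute log2 ratio was 0.20 for the 9 genes and 0.21 for all detected genes. A ratio above 0 was found for 8 of the 9 genes and for 193 of the 365. As sums, Mir17-92 was 1.16-fold and Mir106b-25 1.21-fold higher in replicate 2.

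The 6 genes of the X-linked Mir106a-363 cluster had ratios above those of the other 2 clusters, Mir19b-1 excepted, from 1.39-fold for Mir18b to 3.02-fold for Mir20b, with 5 called higher in replicate 2, beside 26.0% of all detected genes. The differences between clusters were not tested gene by gene. The X-linked sum stood at 1276 CPM in replicate 2, against 551 CPM in replicate 1. Mir17-92 over Mir106a-363 was thus 18.6 in replicate 2 and 37.7 in replicate 1, with log2 intervals of 4.18 to 4.25 in replicate 2 and 5.19 to 5.28 in replicate 1.

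Markers of other cell types were compared between the pools by the same test, in which 46.3% of all detected genes were called. Of 7 leukocyte genes 6 were listed and 4 detected, all 4 with a ratio above 0 and 3 of them called higher in replicate 2, with a summed level of 823 CPM in replicate 2, against 668 CPM in replicate 1. Mir142, a defining leukocyte miRNA, was not among the listed genes, and Mir142b, the gene on the other strand of that locus, had 1 sense count in replicate 2 and 0 in replicate 1. The opposite strand of Mir142b, on which GENCODE places Mir142, had 19615 counts in replicate 2 and 11332 in replicate 1, which the leukocyte sum does not hold. With these added, per 1000000 sense counts, that sum would be 4181 in replicate 2 and 2418 in replicate 1. Of 6 epithelial genes all were detected, with 5 called lower and 1 called higher in replicate 2, and a sum of 4073 CPM in replicate 2, against 5240 CPM in replicate 1. Of 8 neural genes 7 were listed and 2 detected, Mir128-1 and Mir128-2, both called higher, with a sum of 428 CPM in replicate 2, against 267 CPM in replicate 1, while Mir9-2 and Mir124a-3 had no count. Of the other neural genes, Mir9-3 had 1 count in replicate 2 and 16 in replicate 1, and Mir124a-1 and Mir124a-2 each had 0 in replicate 2 and 1 in replicate 1. Of 3 erythroid genes all were detected, with 1 called lower, and a sum of 1805 CPM in replicate 2, against 2118 CPM in replicate 1. Of the 3 endothelial genes 1 was called higher, and they summed to 84356 CPM in replicate 2, against 85979 CPM in replicate 1, and the liver gene Mir122 stood at 161 CPM in replicate 2, against 160 CPM in replicate 1. Of the 3 heart muscle genes, Mir208a was called higher in replicate 2 (log2 ratio 0.26), Mir208b was called lower (-0.02) and Mir499 was not called. The part of these marker genes in the differences of the cluster genes was not tested.

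The listed genes nearest in ratio were sought among 69 genes with a mean of at least 1000 CPM, leaving out the cluster genes, genes that share their seeds and the marker genes, by the difference in log2 ratio from the summed cluster. Over 2 libraries this is a likeness of a single difference. For Mir17-92 (0.22) they were Mir107 (0.23), Mir130b (0.23) and Mir16-1 (0.24). For Mir106b-25 (0.27) they were Mir484 (0.28), Mir181d (0.30) and Mir16-1 (0.24). Among the marker genes left out, Mir208a of heart muscle had a log2 ratio of 0.26, nearer to Mir106b-25 than those of Mir181d and Mir16-1.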

How the data were processed

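Per the labels, total RNA of a size range given as <30, with no unit, was used for microRNA sequencing. The tables as deposited by the authors hold unnormalised read counts for each gene. A file list that accompanies each library names mm10 and annotation M4. The aligner, counter and trimming are not given in the sources used here. Of the 3 count columns (both strands and each strand), column 3 held all reads of the 9 genes and was taken as sense. The 4 lines that name no gene stayed out of totals.

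Genes were matched by Ensembl identifier without version to GENCODE M21 (same build), which held 1894 of 1973. RefSeq sequences (GRCm38.p6) were found for all 9 genes and for 330 of 365 detected genes. CPM is counts per 1000000 sense counts. TMM factors were computed over detected genes with edgeR 4.0.16 (R 4.3.3); DESeq2 1.42.0 gave alternative size factors. With 1 group, edgeR's quasi-likelihood test had no contrast, so the libraries were compared with scipy 1.17.1 (Python 3.11.15) by the exact binomial test, adjusted over all genes tested. The test was tried on simulated libraries that held counting error alone, so it was not tried against variation between pools. Log2 ratios have 0.5 added to each count.

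The genes, lists and rules were chosen with earlier results of these data known. Named were the 9 genes, the X-linked cluster, genes sharing a seed, the 3 nearest in ratio per cluster and the marker lists. The labels give the 2 pools as biological replicates; p-values measure counting error between 2 libraries.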

Additional observations from a re-analysis of the deposited data

Results flagged for a closer look

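The comparisons use sense counts alone, and 5 marker genes also had more than 3 counts on the opposite strand in both libraries, the limit that a count of 0 allows. Mir142b had 19615 opposite-strand counts in replicate 2 and 11332 in replicate 1, on the strand where GENCODE places the leukocyte gene Mir142. Mir486 had 40 and 39, Mir126a had 17 and 26, Mir122 had 6 and 6, and Mir200a had 5 and 8. The 9 cluster genes had 0 opposite-strand counts in both libraries.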

How the results depend on the processing

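With all reads of a library as denominator the share of Mir17-92 was 0.980% and that of Mir106b-25 0.390%, and without the most abundant gene in the total that of Mir17-92 was 2.46%. Leaving out Mir19b-1 and Mir92-1, whose guide arms lie in another hairpin, gave a log2 ratio of Mir17-92 over Mir106b-25 of 1.20. The log2 spread within Mir17-92 was then 9.57, and by the construction of the setting Mir19a became the lowest gene. This setting only takes counts away, so it cannot show what the missing reads of Mir19b-1 and Mir92-1 would add. Without replicate 2 or replicate 1, the share of Mir17-92 ranged from 2.08 to 2.37% and that of Mir106b-25 from 0.811 to 0.961%. The spread within Mir17-92 ranged from 11.1 to 11.9 and that within Mir106b-25 from 3.98 to 4.15. The log2 ratio between the clusters ranged from 1.30 to 1.36. A 2-fold minimum left 0 of the 9 genes called, against 7 without it, and the other settings of the library test left 6 or 7 called, all of them higher in replicate 2. DESeq2 size factors put 48.2% of all calls higher in replicate 2, beside 56.2% with TMM. Scaling TMM over all listed genes was an alternative chosen after seeing the data, and it called 174 genes in all. No paired analysis was possible because the labels give a single group. With 2 libraries of 1 group, the variation between pools has 1 degree of freedom, and depth limits Mir19a and Mir19b-1 most.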
